A study of Mus musculus with 6 samples.

Results

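RNA sequencing measured 37 genes of cholesterol and fatty acid synthesis, chosen by name from a list that holds 4 regulators, 17 enzymes and 1 carrier of the sterol arm, 1 regulator and 10 enzymes of the fatty acid arm, and 4 genes of sterol sensing and efflux. All 37 were found among the 24333 genes kept from the library tables. The cells were splenic natural killer (NK) cells of female C57BL/6 mice, sorted for NK1.1 and NKp46 and against CD3 and CD1d tetramer binding. One group of mice had received complexes of IL-15 (IL-15C, 3 libraries) and the other complexes of IL-2 (IL-2C, 3 libraries). Every mouse had thus received a cytokine complex, and untreated cells were not analysed here. Neither the dose, the time, the carrier protein of the complexes nor the number of mice behind a library is stated in the labels.

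Cells adjust sterol synthesis through a sensor in the endoplasmic reticulum. SCAP carries the membrane-bound factors SREBP1 (Srebf1) and SREBP2 (Srebf2) to the Golgi for cleavage, INSIG proteins hold SCAP back when sterols are plentiful, and the cleaved factors then switch on enzyme genes, SREBP2 mainly those of the sterol arm and SREBP1 mainly those of the fatty acid arm. The liver X receptors (LXR, genes Nr1h2 and Nr1h3) sense oxidised sterols and induce the exporters Abca1 and Abcg1. In mouse NK cells SREBP activity is known to be needed for the metabolic response to stimulating cytokines.

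Levels are FPKM, fragments scaled to transcript length and library size, as the authors deposited them. Libraries held an implied 23526567 to 27212608 fragments. All 12 NK marker genes were at 49.5 FPKM or more in every library, among them Ncr1 and Klrb1c, which encode the sorted proteins NKp46 and NK1.1. Of other cell types, the 9 B cell markers summed to 5.06 to 16.8 FPKM in IL-15C and 9.55 to 24.0 FPKM in IL-2C libraries. The 10 neutrophil markers summed to 42.1 to 112 FPKM in IL-15C and 41.6 to 61.0 FPKM in IL-2C, and the 8 erythroid markers to 1.34 to 22.3 FPKM against 2.00 to 3.84 FPKM. IL-15C replicate 1 held the highest neutrophil and erythroid sums. All 6 tested neutrophil markers had a log2 change above 0, and Retnlg was called higher in IL-15C (limma adjusted p = 0.0445). Of 14 macrophage and monocyte markers, 3 reached 1 FPKM, Lyz2 at 12.2 to 25.5 FPKM, Ctss at 16.2 to 21.3 FPKM and Cd68 at 4.11 to 5.87 FPKM, while the others, Csf1r and Adgre1 among them, stayed under 1 FPKM. The 4 tested dendritic cell markers included Itgax, at 197 to 260 FPKM and called higher in IL-15C (limma adjusted p = 0.0209), and Batf3, called lower (0.00191). Irf8 at 134 to 210 FPKM and Zbtb46 at 1.18 to 1.46 FPKM did not pass, and Flt3, Xcr1 and Clec9a were near 0. Thus 1 of the 4 was called higher and 1 lower, against 1.72% and 4.72% of all tested genes. Of 8 T cell markers, Cd4, Cd8b1, Cd5 and Cd6 stayed under 1 FPKM and Cd28 stood at 13.7 to 15.9 FPKM. Transcripts of the CD3 chains were present, Cd3g at 31.6 to 44.6 FPKM in IL-15C and 30.7 to 32.9 FPKM in IL-2C, although the sort removed cells with surface CD3. The part of other cell types in the results on lipid genes was not tested. In sorted cells, fewer cells of a type and less RNA per cell cannot be told apart.

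Of the 37 genes, Srebf2 was higher in IL-15C than in IL-2C and Insig1 was lower, while no tested enzyme of either arm passed the test. The call of Srebf2 was kept in 14 of 17 alternative settings and that of Insig1 in 8. Sqle, an enzyme too low to be tested with the others, had a ratio of 1.56. Differences were tested by limma on log2(FPKM + 1) over all 9831 genes with a mean of at least 1 FPKM, at a Benjamini-Hochberg adjusted p under 0.05. This left 32 of the 37 members, of which 1 was called higher, 1 lower and 30 did not pass. Over all tested genes 1.72% were called higher and 4.72% lower, 6.44% together, so the members' 6.25% was no more than the background. Scaling the libraries to a common median turned the split of all calls to 325 higher and 207 lower, from 169 and 464, and quantile normalization to 307 and 269. The median log2 change was -0.01 over the 32 members and -0.04 over all tested genes. The 3 IL-15C values all lay above the 3 IL-2C values for 3 members (9.38%) and all lay below for 6 (18.8%), against 8.15% and 25.1% of all tested genes.

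The promoters of both called regulators are given here with that of Hmgcs1, an SREBP2 target that did not pass the test, because letters tied to SREBP binding can be read in them. Each line gives the 250 bases before the RefSeq start site (GRCm38.p6, the assembly of mm10). These are chr15:82147019-82147268 for Srebf2, chr5:28071162-28071411 for Insig1 and chr13:119690101-119690350 for Hmgcs1, all on the plus strand. Capitals mark matches on either strand to the letters of 4 elements, which do not overlap in these windows. They are the sterol regulatory element core, TCACCCCA, the E-box, which reads CACGTG, the box named CCAAT for its letters, and the GC box, whose letters are GGGCGG.
Srebf2: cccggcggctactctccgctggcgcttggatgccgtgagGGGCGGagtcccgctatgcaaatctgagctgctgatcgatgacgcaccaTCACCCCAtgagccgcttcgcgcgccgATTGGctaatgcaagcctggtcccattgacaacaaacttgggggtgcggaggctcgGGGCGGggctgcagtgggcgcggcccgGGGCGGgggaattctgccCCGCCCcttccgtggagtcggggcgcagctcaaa
Insig1: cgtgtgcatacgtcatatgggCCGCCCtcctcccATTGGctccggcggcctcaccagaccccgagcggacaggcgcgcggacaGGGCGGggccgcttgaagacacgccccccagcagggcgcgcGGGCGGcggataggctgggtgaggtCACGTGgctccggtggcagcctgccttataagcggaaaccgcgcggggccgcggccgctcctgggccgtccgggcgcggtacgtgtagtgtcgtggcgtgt
Hmgcs1: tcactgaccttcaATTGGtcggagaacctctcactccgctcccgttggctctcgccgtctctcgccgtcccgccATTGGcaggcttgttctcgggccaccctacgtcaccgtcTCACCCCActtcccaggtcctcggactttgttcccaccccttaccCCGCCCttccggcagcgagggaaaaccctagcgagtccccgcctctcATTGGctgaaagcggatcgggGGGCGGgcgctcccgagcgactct

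The sterol element core stood at -162 to -155 from the start site of Srebf2 and at -137 to -130 from that of Hmgcs1, and no match to its letters lay in the Insig1 window, which held an E-box at -101 to -96. A RefSeq window was found for 29 members. The core was present in 2 of them and in 1.34% of all 32851 windows of the same length. An E-box was present in 7 members and 6.02% of all windows, a CCAAT box in 20 and 33.8%, and a GC box in 22 and 32.7%. A member with several windows counted if any of them matched, whereas the percentages are of single windows. The counts and percentages are therefore not directly comparable. These matches describe the letters in the windows and do not show that a factor bound there.

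Srebf2, which encodes SREBP2, lies on chromosome 15 at 82147269 to 82204960. It had 16.95, 16.96 and 15.7 FPKM in the IL-15C libraries, against 13.02, 13.5 and 12.9 FPKM in the IL-2C libraries. All 3 IL-15C values were higher, with a gap wider than the spread within either group. The means were 16.5 ± 0.710 FPKM and 13.1 ± 0.318 FPKM (SD, n = 3 each), a ratio of 1.26, and the log2 change was 0.31 ± 0.05 (SE; limma adjusted p = 0.0118, rank 54 by p of all tested genes). Every alternative scaling kept the call, but it ended with no filter on low genes (limma adjusted p = 0.0649), or with either IL-2C replicate 1 (0.0605) or IL-2C replicate 2 (0.0521) left out.

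Insig1, whose product retains SCAP and whose own gene is an SREBP target, lies on chromosome 5 at 28071412 to 28078662. It had 6.46, 6.56 and 6.56 FPKM in IL-15C, against 7.86, 7.72 and 7.56 FPKM in IL-2C. The groups did not overlap and each was tight, at 6.53 ± 0.0580 FPKM and 7.71 ± 0.147 FPKM (SD, n = 3 each), a ratio of 0.846. The log2 change was -0.21 ± 0.04 (SE; limma adjusted p = 0.0297). This call was the weaker of the pair: it ended with no filter on low genes (limma adjusted p = 0.0697), after scaling to a common median (0.0502) and after quantile normalization (0.0539). It also ended with any library except IL-15C replicate 1 left out, at adjusted p of 0.0511 to 0.1098, while the log2 change stayed between -0.20 and -0.22.

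Because the ratio of a pair of genes within a library does not depend on how libraries are scaled, the levels of the regulators were also divided by each other. Srebf2 over Insig1 was 2.62, 2.58 and 2.40 in IL-15C, against 1.66, 1.74 and 1.70 in IL-2C. Srebf2 over Srebf1 was 0.822, 0.913 and 0.855 in IL-15C, against 0.666, 0.717 and 0.753 in IL-2C. Neither ratio overlapped between the groups. They were chosen because of the changes above, so they describe the 2 calls and add no test.

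**Figure D1:**
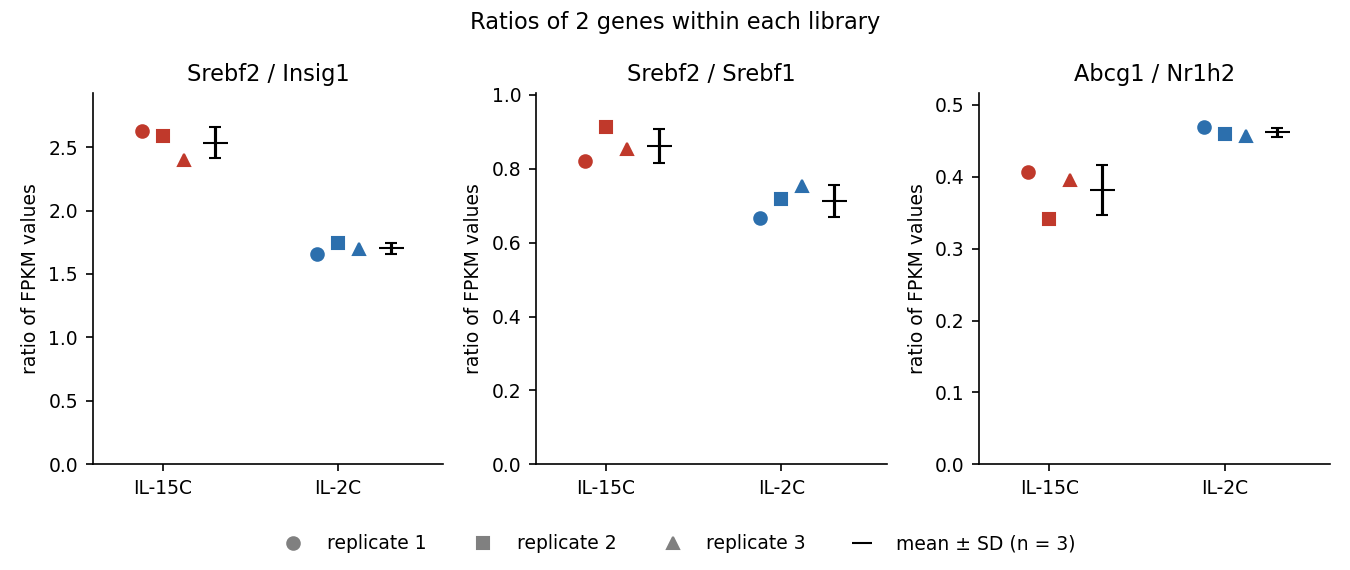
Ratios of FPKM values of 2 genes within each library (y axes), IL-15C left of IL-2C; symbols are replicates and bars the mean ± SD of 3 libraries. Srebf2 over Insig1 lies between 2.40 and 2.62 in IL-15C and between 1.66 and 1.74 in IL-2C.

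The remaining regulators did not pass. Scap, which escorts the SREBPs, had 16.2, 15.1 and 14.5 FPKM in IL-15C, against 16.1, 15.7 and 14.4 FPKM in IL-2C, and the groups overlapped fully. Insig2, the second INSIG gene, had 10.2, 9.39 and 10.2 FPKM in IL-15C, against 10.9, 10.7 and 10.8 FPKM in IL-2C. All its IL-15C values were lower, but the log2 change of -0.11 ± 0.05 had a limma adjusted p of 0.174. The authors' deposited table gives a value per group, in which Srebf2 stood at 22.4 FPKM in IL-15C and 17.2 FPKM in IL-2C and Insig1 at 8.85 FPKM and 10.1 FPKM. That table was scaled separately and pools the same libraries, so it is no independent support.

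**Figure D2:**
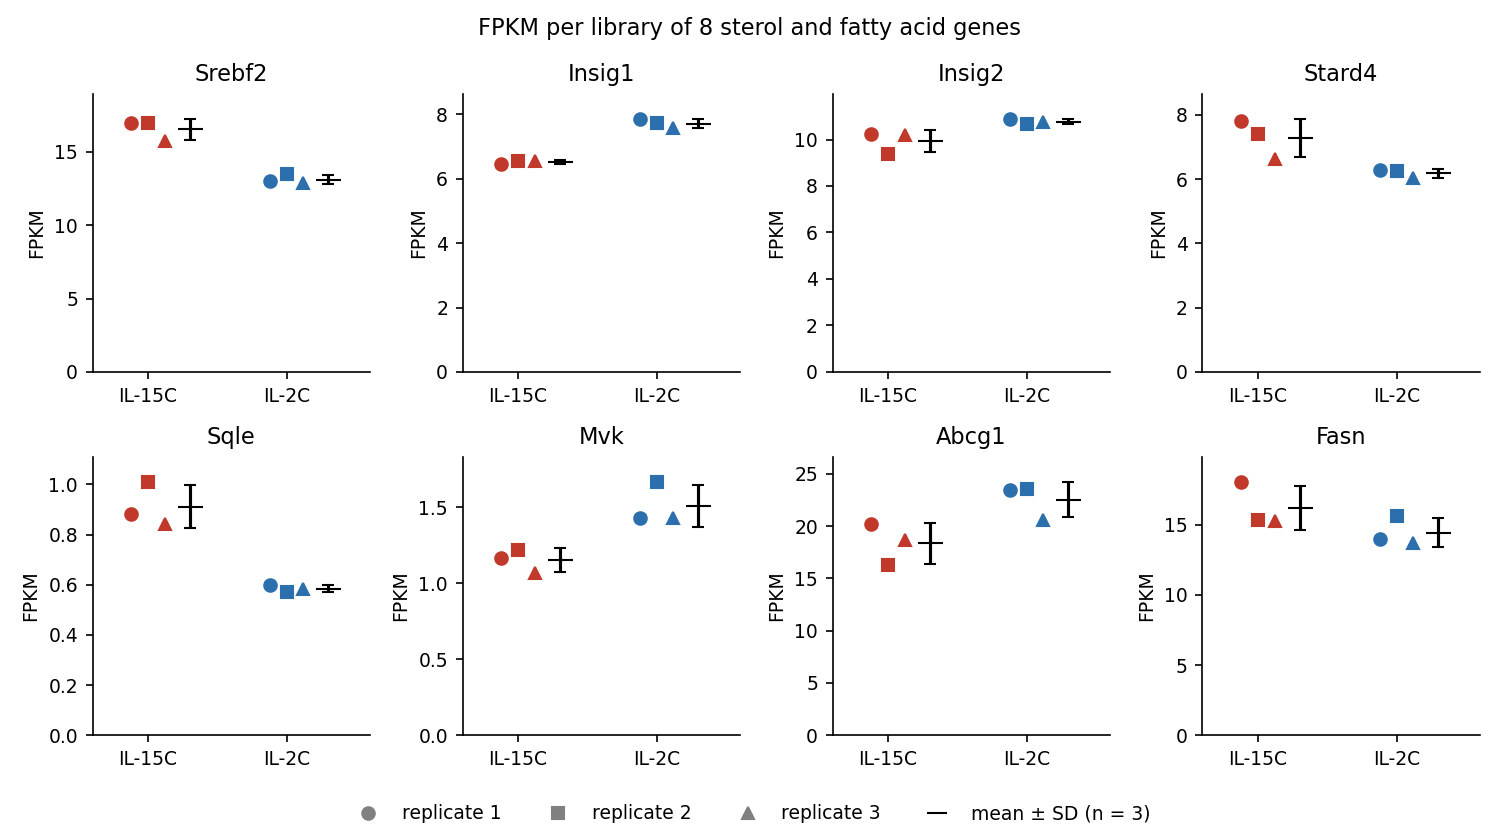
FPKM (y axes) of 8 genes in each library, IL-15C left of IL-2C; symbols are replicates and bars the mean ± SD of 3 libraries. The groups do not overlap for Srebf2, Insig1, Insig2, Stard4, Sqle, Mvk and Abcg1, and overlap for Fasn. Most members are not shown. Of the 32 tested members, 3 lay wholly above and 6 wholly below in IL-15C, against 8.15% and 25.1% of all tested genes.

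The 17 enzymes that turn acetyl-CoA into cholesterol showed no common shift. Of the 15 tested, 0 were called higher and 0 lower by limma; 2 had an unadjusted p under 0.05, against 26.9% of all tested genes, and other settings called Mvk or Msmo1 as given below. The log2 changes ranged from -0.22 to 0.12, with 7 above and 8 below 0 and a median of -0.01. Over all tested genes 64.7% were below 0. For 14 of the 15 the 95% interval of the change lay within ±0.32, which is a 1.25-fold difference on this scale. The same held for 8197 of all 9831 tested genes, and this scale understates the fold of low genes. The summed level of the 17 was 117, 111 and 109 FPKM in IL-15C, against 115, 113 and 108 FPKM in IL-2C, a ratio of 1.00.

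At the entry to the pathway, Acat2, the cytosolic thiolase, averaged 4.98 ± 0.236 FPKM in IL-15C and 5.13 ± 0.362 FPKM in IL-2C. Hmgcs1, which makes HMG-CoA, had 10.7, 12.9 and 11.5 FPKM in IL-15C, against 12.7, 12.4 and 11.8 FPKM in IL-2C. Its IL-15C libraries spanned all of the IL-2C values. The log2 change of Hmgcs1 was -0.07 with a 95% interval of -0.22 to 0.07.

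Mvk, mevalonate kinase, was the lowest of the early enzymes. It had 1.17, 1.22 and 1.07 FPKM in IL-15C, against 1.43, 1.66 and 1.43 FPKM in IL-2C, from 83 to 95 implied fragments per IL-15C library and 101 to 143 per IL-2C library. All IL-15C values were lower, and the means of 1.15 and 1.51 FPKM gave a ratio of 0.764. The log2 change was -0.22 ± 0.07 (limma adjusted p = 0.0956), and it passed under array weights only (0.0233). The next enzymes, Pmvk, Mvd, Idi1, Fdps and Fdft1, which carry mevalonate to squalene, had ratios of means between 0.978 (Fdps) and 1.07 (Idi1), and in each of them the groups overlapped.

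Sqle, squalene epoxidase and a rate-limiting step of the arm, had the largest ratio of any sterol gene but lay below the 1 FPKM filter. It stood at 0.883, 1.01 and 0.842 FPKM in the IL-15C libraries, against 0.599, 0.570 and 0.582 FPKM in IL-2C. Every IL-15C value was higher, with means of 0.911 ± 0.0871 FPKM and 0.584 ± 0.0145 FPKM (SD, n = 3 each) and a ratio of 1.56. Leaving out any library kept that ratio between 1.48 and 1.62. The values rest on 305 implied fragments in IL-15C and 203 in IL-2C, a rate ratio of 1.61 (exact 95% limits 1.34 and 1.93, for counting error alone). A two-sided exact permutation test gave p = 0.1, and a design of 3 libraries against 3 can give no smaller value. In a limma fit without the filter, where the + 1 shrinks so low a gene, the log2 change was 0.27 ± 0.04 with an adjusted p of 0.0669. Sqle lies on chromosome 15 at 59315092 to 59331193.

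Downstream of Sqle, Lss and Cyp51, the lanosterol synthase and demethylase, averaged 2.01 ± 0.325 and 1.79 ± 0.105 FPKM in IL-15C, and 1.97 ± 0.0910 and 1.56 ± 0.0536 FPKM in IL-2C. Cyp51 was higher in all 3 IL-15C libraries, at 1.90, 1.69 and 1.78 FPKM against 1.61, 1.57 and 1.51 FPKM, with a log2 change of 0.12 ± 0.06 that did not pass (limma adjusted p = 0.256). Msmo1, the sterol methyl oxidase, had 7.57, 6.45 and 6.34 FPKM in IL-15C, against 7.43, 7.90 and 7.83 FPKM in IL-2C. IL-15C replicate 1 lay among the IL-2C values of Msmo1. Its log2 change of -0.17 ± 0.06 had a limma adjusted p of 0.140, and -0.24 with an adjusted p of 0.0280 without that library; it also passed under array weights (0.0123).

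The late enzymes Nsdhl, Ebp, Sc5d and Dhcr7, which remodel the sterol rings, had ratios of means from 0.943 (Nsdhl) to 1.05 (Ebp). Nsdhl was lower in all IL-15C libraries, at 6.999, 6.63 and 7.06 FPKM against 7.44, 7.13 and 7.38 FPKM, with a limma adjusted p of 0.331. Sc5d was the flattest of the arm, at 18.2, 17.7 and 17.8 FPKM in IL-15C and 18.4, 17.7 and 17.9 FPKM in IL-2C. Hsd17b7, a ketosterol reductase below the filter, averaged 0.594 ± 0.0998 FPKM in IL-15C and 0.528 ± 0.0127 FPKM in IL-2C (SD, n = 3 each; exact two-sided permutation p = 0.4).

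Stard4, a soluble sterol carrier and known SREBP2 target, was higher in IL-15C but did not pass the test. It had 7.81, 7.42 and 6.64 FPKM in IL-15C, against 6.28, 6.25 and 6.03 FPKM in IL-2C. No values overlapped, and the means of 7.29 ± 0.592 and 6.19 ± 0.139 FPKM gave a ratio of 1.18. This log2 change of 0.20 ± 0.06 missed the threshold (limma adjusted p = 0.0695). It passed after scaling to a common median (0.0360) and after quantile normalization (0.0331), under array weights (0.0372), in implied fragments per 1000000 (0.0496) and without IL-15C replicate 3 (0.0499). With any other library left out its adjusted p was at most 0.170.

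**Figure D3:**
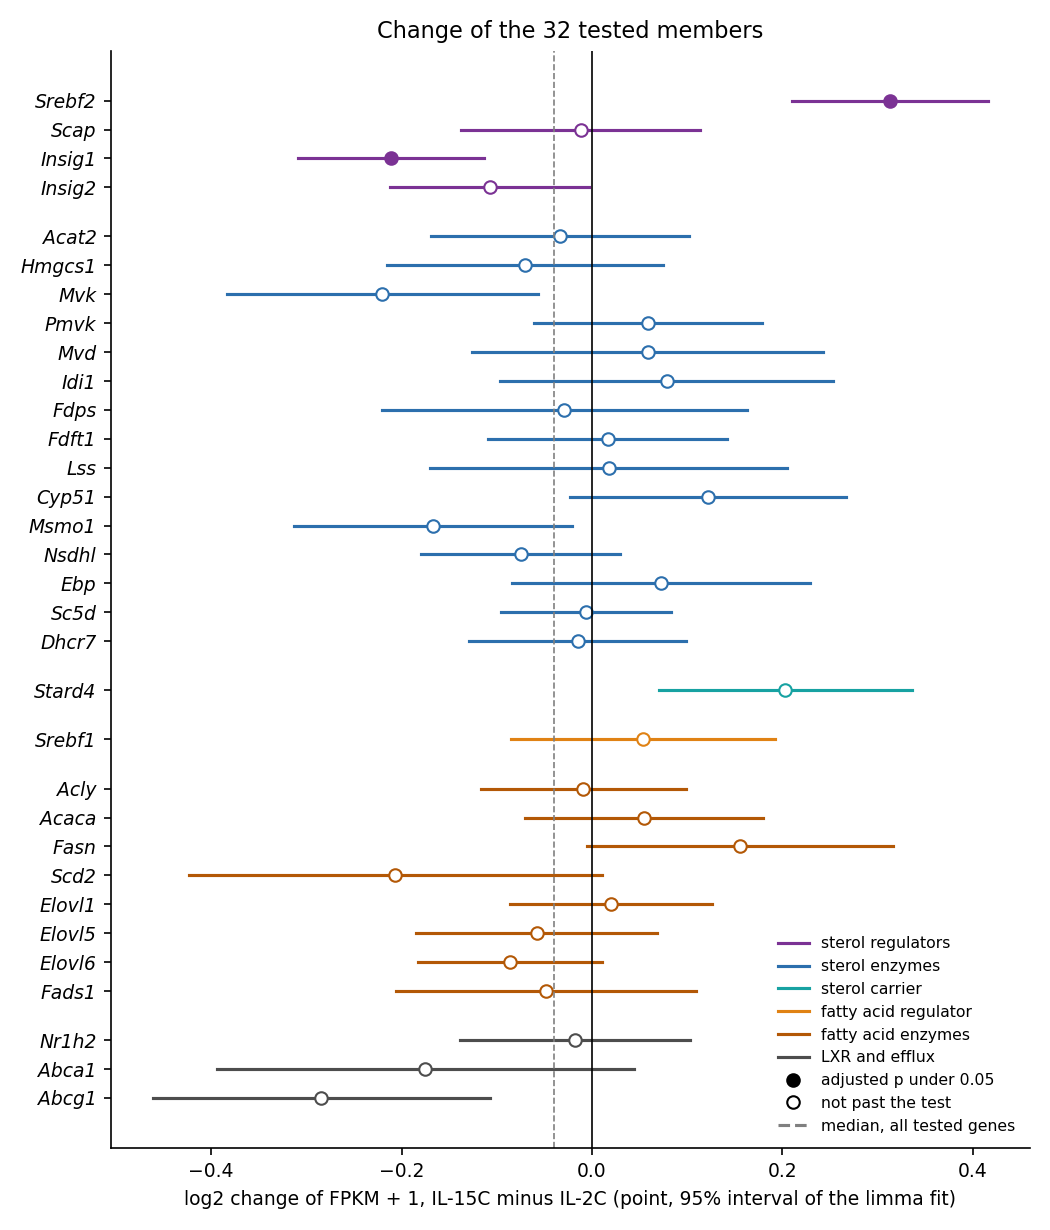
Log2 change of FPKM + 1, IL-15C minus IL-2C (x axis), with the 95% interval of the limma fit for the 32 tested members, grouped by role; filled points passed the test and the dashed line is the median of all tested genes at -0.04. Srebf2 at 0.31 and Insig1 at -0.21 are the filled points.

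Levels along the sterol arm were uneven, and this held in both treatments. Ebp averaged 25.6 FPKM over the 6 libraries and Sc5d 17.9 FPKM, whereas Sqle averaged 0.747 FPKM and Hsd17b7 0.561 FPKM. Mvk, Cyp51 and Lss stood between 1.33 and 1.99 FPKM. Among the regulators Scap at 15.3 FPKM and Srebf2 at 14.8 FPKM were close, while Insig1 at 7.12 FPKM was the lowest. Because FPKM is scaled per length, these levels allow a rough comparison between genes. The gene annotation behind those lengths is not named in any source used here.

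**Figure D4:**
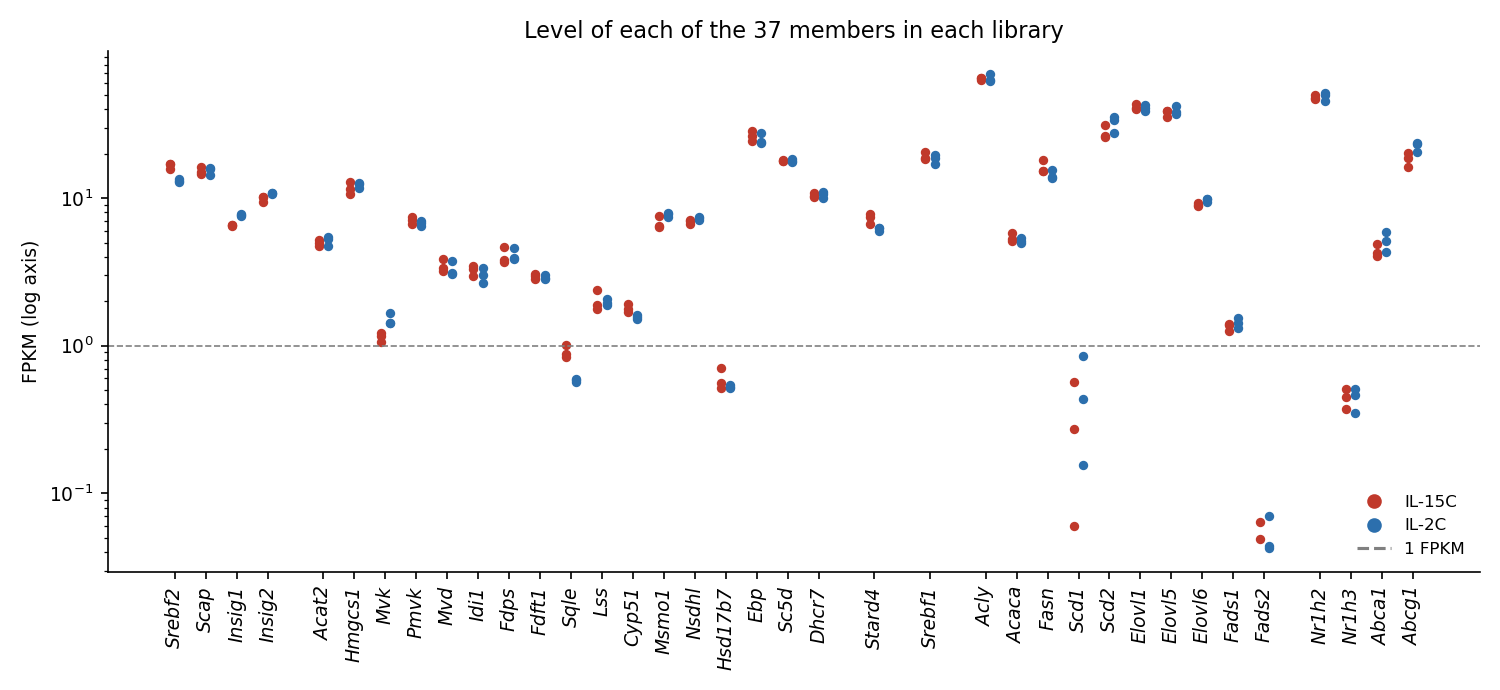
FPKM on a log axis (y) of each of the 37 members (x), ordered by role, with a point for each library, IL-15C left of IL-2C; the dashed line marks 1 FPKM. Fads2 is listed at 0 in IL-15C replicate 1, which a log axis cannot show; Acly, Nr1h2, Elovl1 and Elovl5 are the highest members and Fads2 the lowest.

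The fatty acid arm did not differ between the treatments by this test. Srebf1 had 20.6, 18.6 and 18.4 FPKM in IL-15C, against 19.5, 18.8 and 17.1 FPKM in IL-2C, a log2 change of 0.05 ± 0.06 (limma adjusted p = 0.601). Of the 8 enzymes tested, 0 had an unadjusted p under 0.05, against 26.9% of all tested genes. By limma 0 of the 8 enzymes were called higher and 0 lower, and no alternative setting called any of them. Their log2 changes ranged from -0.21 to 0.16 with a median of -0.03. The summed level of the 10 enzymes was 208, 195 and 207 FPKM in IL-15C, against 218, 210 and 196 FPKM in IL-2C.

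Acly, which makes cytosolic acetyl-CoA from citrate, was the most abundant member. It had 65.2, 63.0 and 64.5 FPKM in IL-15C, against 68.8, 63.1 and 62.3 FPKM in IL-2C, and the groups overlapped. The log2 change was -0.01 with a 95% interval of -0.12 to 0.10. Acaca, the acetyl-CoA carboxylase, averaged 5.39 ± 0.324 FPKM in IL-15C and 5.15 ± 0.200 FPKM in IL-2C.

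Fasn, fatty acid synthase, had 18.0, 15.3 and 15.3 FPKM in IL-15C, against 14.0, 15.6 and 13.7 FPKM in IL-2C. IL-15C replicate 1 stood apart from the other libraries and IL-2C replicate 2 lay above the 2 lower IL-15C values. The log2 change of 0.16 ± 0.07 did not pass (limma adjusted p = 0.198).

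The elongases and desaturases were mostly flat. Elovl1 and Elovl5, which extend long and polyunsaturated chains, averaged 41.3 ± 1.596 and 37.6 ± 2.02 FPKM in IL-15C, and 40.7 ± 1.68 and 39.1 ± 2.36 FPKM in IL-2C. Elovl6, which extends palmitate, was lower in all IL-15C libraries, at 8.88, 9.02 and 9.23 FPKM against 9.79, 9.41 and 9.78 FPKM, with a log2 change of -0.09 ± 0.04 (limma adjusted p = 0.233). Fads1, the delta-5 desaturase, averaged 1.35 ± 0.0845 FPKM in IL-15C and 1.43 ± 0.108 FPKM in IL-2C. Fads2, the delta-6 desaturase, rested on at most 4 implied fragments per library and was listed at 0 in IL-15C replicate 1, so a difference was not detectable at this depth.

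The stearoyl-CoA desaturases introduce a double bond into saturated chains. For Scd2, FPKM and implied fragments gave different changes. Scd2 had 26.2, 25.7 and 31.3 FPKM in IL-15C, against 33.6, 35.4 and 27.7 FPKM in IL-2C, with overlap between the groups and a log2 change of -0.21 ± 0.10 (limma adjusted p = 0.204). Its implied fragments per 1000000 were 69.6, 67.7 and 71.5 in IL-15C, against 73.9, 68.4 and 64.4 in IL-2C. On that measure the log2 change was 0.02, so the lower FPKM in IL-15C was not matched by fewer implied fragments. Implied fragments were inferred from the deposited interval and not counted. Whether they follow the reads of Scd2 was not tested, nor was the cause of the difference.

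Scd1, a second gene of the family, was low, and its libraries varied widely within both treatments, with 12 to 104 implied fragments in IL-15C and 34 to 184 in IL-2C. It had 0.567, 0.0602 and 0.272 FPKM in IL-15C, against 0.435, 0.854 and 0.156 FPKM in IL-2C (exact two-sided permutation p = 0.6). The summed level of the 9 B cell markers was 16.8, 5.06 and 8.28 FPKM in the same IL-15C libraries and 16.3, 24.0 and 9.55 FPKM in the IL-2C libraries. The highest and the lowest library were the same for both quantities, and the part of B cell RNA in the Scd1 level was not tested.

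**Figure D5:**
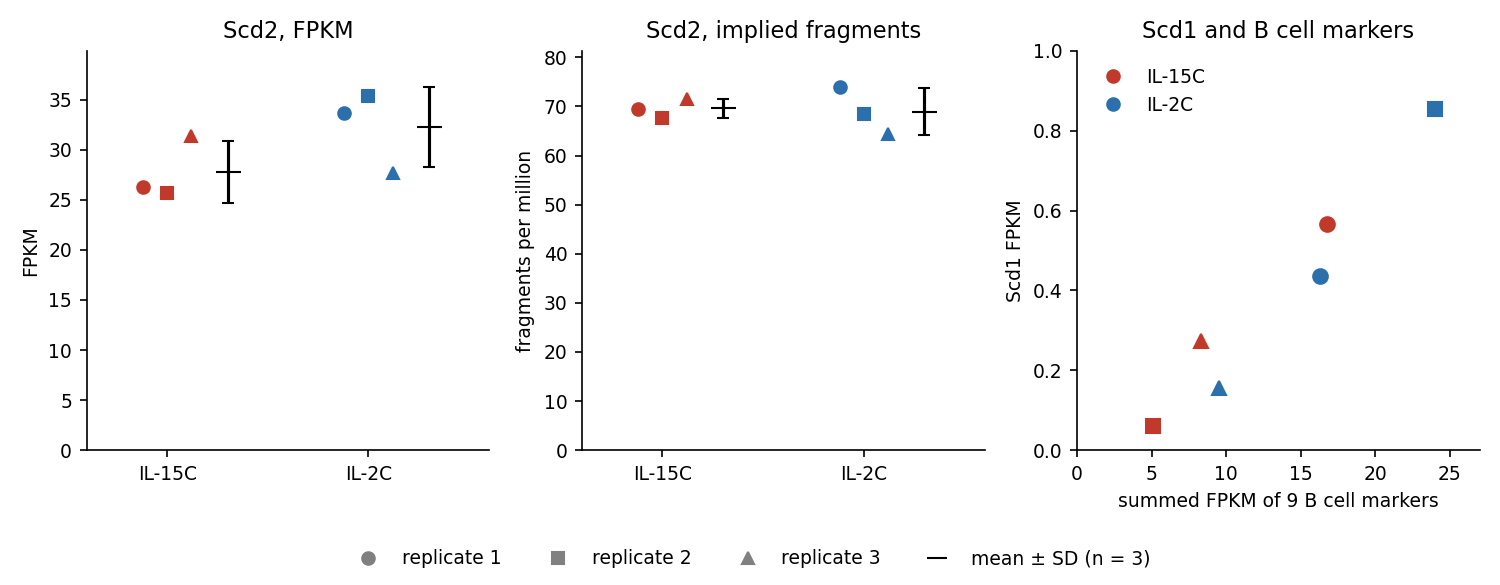
Scd2 as FPKM (left) and as implied fragments per 1000000 (middle), with symbols for replicates and bars for the mean ± SD of 3 libraries, and Scd1 FPKM against the summed FPKM of 9 B cell markers (right). Scd2 differs between the treatments less in implied fragments than in FPKM, and Scd1 spans 0.0602 to 0.854 FPKM.

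Of the 3 tested genes of sterol sensing and efflux, 0 were called higher and 0 lower by limma. An unadjusted p under 0.05 was found for 1, against 26.9% of all tested genes, and Abcg1 passed in some alternatives. Nr1h2, which encodes LXR beta, was abundant and flat, at 49.6, 47.6 and 47.2 FPKM in IL-15C and 49.9, 51.3 and 45.1 FPKM in IL-2C. Nr1h3, which encodes LXR alpha, lay below the filter at 0.444 ± 0.0694 FPKM in IL-15C and 0.439 ± 0.0816 FPKM in IL-2C (SD, n = 3 each; exact two-sided permutation p = 0.9). The exporter gene Abcg1 had 20.2, 16.2 and 18.6 FPKM in IL-15C, against 23.4, 23.6 and 20.6 FPKM in IL-2C. All its IL-15C values were lower, though the gap to the nearest IL-2C value was small. The log2 change was -0.28 ± 0.08 (limma adjusted p = 0.0607); it passed without IL-15C replicate 1 (0.0209), under array weights (0.00677) and in implied fragments per 1000000 (0.0487). Abcg1 over Nr1h2 within a library was 0.406, 0.341 and 0.395 in IL-15C, against 0.469, 0.459 and 0.457 in IL-2C, with no overlap. This ratio restates the values above and adds no test. Abca1 had 4.23, 4.89 and 4.05 FPKM in IL-15C, against 4.30, 5.92 and 5.09 FPKM in IL-2C, with overlap and a log2 change of -0.17 ± 0.10 (limma adjusted p = 0.279).

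Further genes of these pathways were read from lists. Of 17 tested sterol genes outside the 37, 0 were called higher and 2 (11.8%) lower by limma, against 1.72% and 4.72% of all tested genes, with a median log2 change of -0.04, the same as over all tested genes. Mylip, an LXR-induced ubiquitin ligase that degrades the LDL receptor, had 88.5, 81.2 and 84.8 FPKM in IL-15C, against 100.3, 97.2 and 93.5 FPKM in IL-2C, a log2 change of -0.19 ± 0.05 (limma adjusted p = 0.0495). Rnf145, a sterol-responsive ubiquitin ligase, had 40.9, 40.0 and 40.6 FPKM in IL-15C, against 46.4, 46.9 and 43.8 FPKM in IL-2C, a log2 change of -0.17 ± 0.04 (0.0474). In neither gene did the groups overlap. Both calls ended after scaling to a common median, and the change of Rnf145 was 0.03 in implied fragments per 1000000. Mylip kept its call in 8 of 17 alternatives and Rnf145 in 6. With a library left out, Mylip passed only without IL-15C replicate 1 (limma adjusted p = 0.0326) and Rnf145 only without IL-2C replicate 3 (0.0462).

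Of 15 further fatty acid genes, 0 were called higher and 1 (6.67%) lower, against 1.72% and 4.72% of all tested genes. Elovl7, an elongase of long saturated chains, had 8.14, 9.65 and 8.47 FPKM in IL-15C, against 11.4, 10.2 and 10.4 FPKM in IL-2C, a log2 change of -0.26 ± 0.07 (limma adjusted p = 0.0485). Its groups did not overlap, and the call ended after scaling to a common median (0.0903) and after quantile normalization (0.0911). It was kept in 5 of 17 alternatives, and with a library left out only without IL-15C replicate 2 (0.0371). Of 7 tested genes of lipid storage and uptake and 15 of fatty acid oxidation, 0 passed in either direction. Among them 2 and 0 had an unadjusted p under 0.05, against 26.9% of all tested genes. Plin2, which coats lipid droplets, had the smallest adjusted p among the storage genes, at 11.5, 10.9 and 9.24 FPKM in IL-15C and 9.45, 8.02 and 8.41 FPKM in IL-2C (limma adjusted p = 0.0826).

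Genes of the cell cycle, read because dividing cells make membrane lipid, were also set beside the sterol arm. Of 11 tested, 2 (18.2%) were called higher, against 1.72% of all tested genes, and 0 lower, against 4.72%. In 3 of the 11 every IL-15C value lay above the IL-2C values, against 8.15% of all tested genes. An unadjusted p under 0.05 was found for 4 of the 11, against 26.9% of all tested genes. Top2a, a topoisomerase of dividing cells, had 6.15, 5.96 and 5.85 FPKM in IL-15C, against 4.45, 4.33 and 4.84 FPKM in IL-2C, a log2 change of 0.34 ± 0.05 (limma adjusted p = 0.0158). Tk1, thymidine kinase, had 2.58, 2.67 and 2.78 FPKM in IL-15C, against 1.94, 1.93 and 2.27 FPKM in IL-2C, a log2 change of 0.27 ± 0.07 (0.0462). The call of Top2a ended with no filter on low genes (0.0669) and with IL-2C replicate 1 (0.0673) or 2 (0.0755) left out. That of Tk1 ended with no filter (0.106), after rescaling to a common sum (0.0578), with the replicate number as a block (0.0559), in implied fragments per 1000000 (0.0832) and without any of IL-15C replicates 2 and 3 and IL-2C replicates 1 and 2 (0.110 to 0.148). Both were higher in IL-15C, as was Srebf2, and the part of cell division in the Srebf2 difference was not tested.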

How the data were processed

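RNA from sorted splenic NK cells was sequenced in 6 libraries, grouped by sample title. The submitters' processing notes name mm10, Cufflinks 2.2.1 and TopHat2 2.0.13, and no source used here names the gene annotation. For each library the authors deposited FPKM values with interval bounds, and a Cuffdiff table of group FPKM values, per the file headers. Of 24343 genes per table, 280 were on several rows and were summed, and 10 with a failed estimate were left out. An interval bound was read as 2 SD of a Poisson count, which gives implied fragments. Such intervals cover counting error only. The reading is inferred from the values and need not hold for genes with several transcript forms.

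The test was limma 3.58.1 in R 4.3.3 with an intensity trend on log2(FPKM + 1), two-sided, IL-15C minus IL-2C, over genes with a mean of at least 1 FPKM; a fold on this scale understates the change of low genes. It was tested on simulated data. Since no label ties the libraries to separate animals, the p-values reflect only how these 6 libraries vary, and that variation may be technical. All 37 members are named, with those genes of other lists that passed or had the smallest adjusted p. The members and lists were chosen with earlier results of these data known. Alternatives were other pseudocounts, filters, scalings and weights, no trend, a replicate block and leaving out each library. Implied fragments per 1000000 were added after the data were seen. Promoter sequences are from RefSeq (GRCm38.p6). Gene positions are those of the files on mm10, written 1-based. Python 3.11.15 with pandas 2.3.3, scipy 1.17.1 and matplotlib 3.10.9 was used.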

Additional observations from a re-analysis of the deposited data

How the results depend on the processing

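Of 619 gene values recomputed under the alternatives, 508 kept their direction and their side of the threshold, 54 lost a call, 11 gained one and 46, of 14 genes, changed sign. Members called higher numbered 0 with no filter on low values and 2 after scaling to a common median, quantile normalization, array weights or implied fragments per 1000000. Members called lower numbered 0 with no filter, common-median scaling, quantile normalization or the replicate block, 4 with array weights and 2 with implied fragments per 1000000. Leaving out single libraries gave 0 to 2 members higher and 0 to 3 lower. All genes called higher, 169, became 6 with no filter, 325 with common-median scaling, 307 with quantile normalization and 440 with array weights, and 14 to 175 with a library left out. All genes called lower, 464, became 9, 207, 269 and 1667 in the same order, and 15 to 572 with a library left out. With no filter 16313 genes were tested, against 9831 in the main fit. The cause of these changes in the counts was not tested for any setting. Same-numbered libraries did not deviate together (correlations of -0.029, -0.156 and -0.024), and differently numbered pairs ran from -0.143 to 0.177. Deviations from means of 3 libraries are tied to each other, so these values cannot settle whether libraries were paired. With the number as a replicate block, 171 genes were called higher and 346 lower, and Insig1 had an adjusted p of 0.0517. The median change of the sterol enzymes was -0.0181 to 0.0163 with a library left out, and that of the fatty acid enzymes -0.0564 to 0.0121, or 0.0258 in implied fragments per 1000000.

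Of the changes that turned sign, the largest on FPKM were those of Scd2 (-0.21) and Rnf145 (-0.17). With common-median scaling they were 0.0310 for Scap, 0.00473 for Acat2, 0.00734 for Fdps, 0.0372 for Sc5d, 0.0265 for Dhcr7, 0.0359 for Acly and 0.0272 for Nr1h2. With quantile normalization they were 0.0267 for Scap, 0.0102 for Acat2, 0.0147 for Fdps, 0.0338 for Sc5d, 0.0246 for Dhcr7, 0.0122 for Acly and 0.00345 for Nr1h2. With a common sum they were 0.00326 for Scap, 0.00925 for Sc5d and 0.00685 for Acly. With array weights they were -0.0543 for Mvd, -0.0142 for Idi1, -0.0614 for Lss and 0.000889 for Acly. In implied fragments per 1000000 they were 0.0659 for Acly, 0.0155 for Scd2, 0.0313 for Nr1h2 and 0.0284 for Rnf145. With a library left out the change ran from -0.0554 to 0.0222 for Scap, -0.0821 to 0.000364 for Acat2, -0.00486 to 0.132 for Mvd, -0.116 to 0.0323 for Fdps, -0.00317 to 0.0371 for Fdft1, -0.0688 to 0.0739 for Lss, -0.0181 to 0.00928 for Sc5d, -0.0518 to 0.0128 for Dhcr7, -0.0353 to 0.0350 for Acly, -0.0102 to 0.05002 for Elovl1 and -0.0720 to 0.0195 for Nr1h2. Rnf145 was the only one of these 14 genes called on FPKM. Depth limits Fads2 most among the members below the filter, with 7 implied fragments in IL-15C and 10 in IL-2C.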
